A study of Mus musculus with 32 samples.

Results

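The data described the digestive tract of newborn mice on postnatal day 1 (P1), when 8 of the 32 libraries of the study were taken, and they were chosen by the stage in the labels alone. Total RNA freed of ribosomal RNA was sequenced from stomach, the top and bottom parts of the intestine, and colon with rectum, with 1 percc1-/- and 1 wild-type library of each region. In percc1-/- mice, 1512 bp of chromosome 17 had been replaced by a loxP site in W4/129S6 embryonic stem cells, so the deletion was present in every cell and at every age. Both genotypes were of a mixed 129SvEv and C57BL/6 background bred between siblings, and no treatment is labelled. The later libraries used for comparison were 11 percc1-/- and 11 wild-type ones of the same genotypes and background from P5 to P20, each pair matched for region and stage. At P5 they came from stomach, top and bottom intestine, colon, and rectum. At P10 and P20 they came from the bottom intestine and the bottom part of the stomach. At P15 they came from the top intestine and the bottom part of the stomach. No large bowel was taken after P5.

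The labels do not say whether the 4 regions of a genotype came from the same animals, how many animals a library holds, or from how many stem cell clones the line came. If 1 animal of each genotype gave all regions, the 4 pairs compare 1 animal with another, and p-values measure only the spread between regions. The tables give FPKM, fragments scaled by transcript length and library size, with lower and upper bounds, and no counts, so the number of fragments behind a value is unknown. With 4 pairs an exact two-sided sign-flip permutation test cannot give a p under 0.125. The smaller p-values below come from limma and rest on a spread borrowed between genes and an assumed normal distribution. Values of a single region were not tested.

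Enteroendocrine cells are scattered hormone-secreting cells of the gut epithelium, and each region has its own set of peptide hormones that act on appetite, acid, bile, insulin and motility. Percc1 is known in mice for its part in the development of these cells. Several of the transcripts described further on are known targets of the glucocorticoid receptor, a nuclear receptor that binds DNA when corticosterone, the stress and fasting hormone of rodents, is present. Others belong to the acute phase response, in which epithelium and liver make serum amyloids, lipocalin and antimicrobial lectins, or to the interferon response, in which cells make antiviral proteins and the machinery of antigen presentation.

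Markers of the regions and of neighbouring organs were compared first. In the percc1-/- library of the top intestine, 12 of 13 gastric gland and pit genes were higher than in wild type (summed level 135 FPKM in wild type and 322 in percc1-/-), and so were the ileal Fabp6 (0 and 16.9 FPKM) and the colonic Car1 (0 and 13.95 FPKM). The percc1-/- stomach had less of 13 of 13 gastric genes (467 and 170 FPKM summed) and more of 10 of 11 brush border genes (43.4 and 88.3 FPKM). Genes of the exocrine pancreas were lower in percc1-/- in 17 of 17 expressed members in stomach (161 and 20.8 FPKM) and in 17 of 18 in the top intestine (251 and 37.8 FPKM), and summed to at most 24.2 FPKM elsewhere. In the bottom intestine, 5 of 6 liver genes were lower (100 and 47.7 FPKM), as was the ileal hormone Fgf15 (11.2 and 0.233 FPKM). The colon with rectum pair had no list of another organ that differed by over 1 log2 unit, and its markers Car1 and Hoxa13 were present in both genotypes. The Y-linked Eif2s3y lay between 16.6 and 23.7 FPKM and Xist at 0.350 FPKM or less in all 8 libraries. These lists move with genotype in 3 of 4 pairs, and their part in the results was not tested, so values are given for each region and, where stated, without stomach and top intestine.

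**Figure D1:**
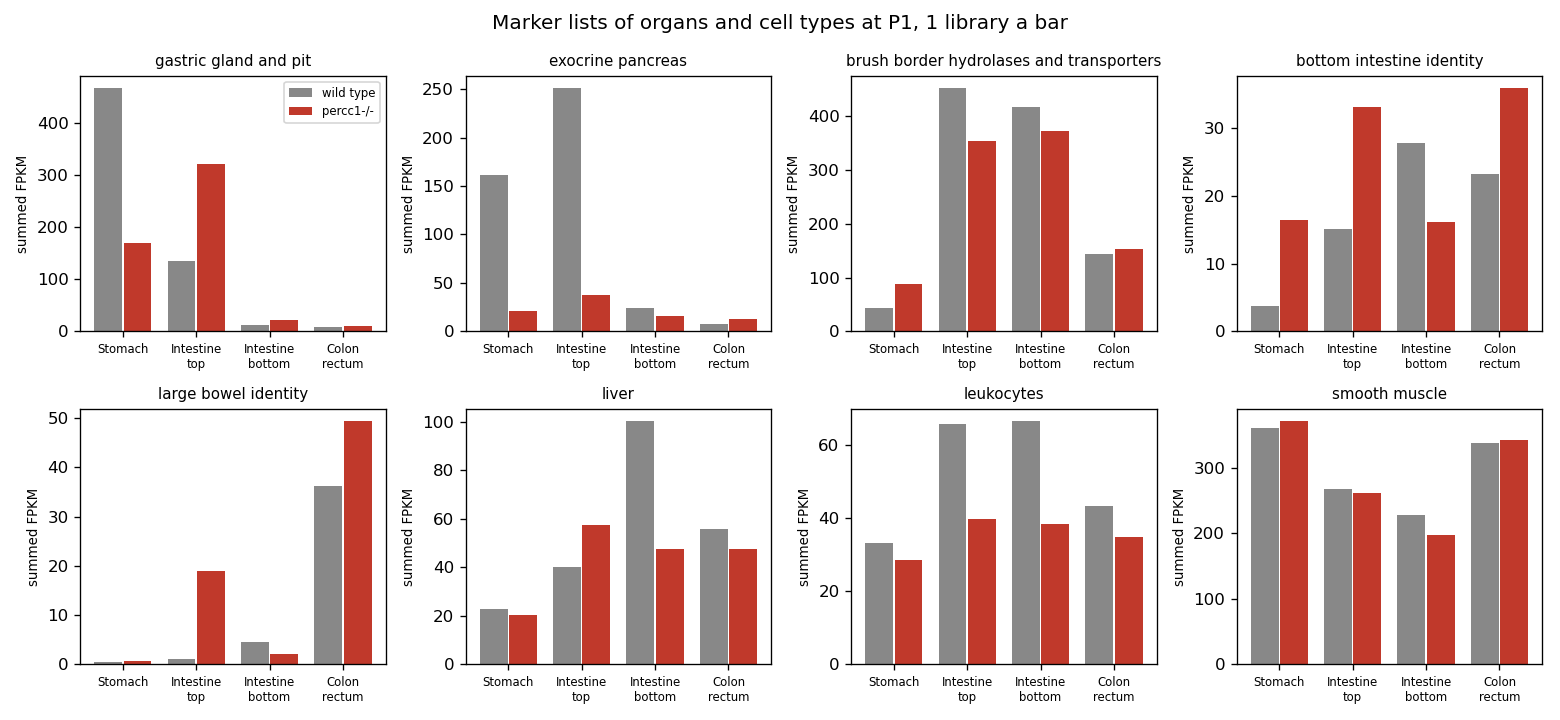
Summed FPKM of 8 marker lists (y axis) in the 4 regions at P1 (x axis), with 1 library a bar, wild type in grey and percc1-/- in red. Exocrine pancreas was at 161 and 251 FPKM in the wild-type stomach and top intestine and at 20.8 and 37.8 in the percc1-/- ones, while smooth muscle lay between 197 and 371 FPKM in all 8 libraries.

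The targeted locus was read next as a check of the labels. No record carried the symbol Percc1. The positions stated in the labels (mm9 chr17:25175032-25176543) lie within Ift140, a gene of transport in cilia, in the mm9 annotation, while the same numbers on GRCm38 lie within Percc1 (chr17:25171154-25180818), and which of the builds these numbers refer to is uncertain. Between Clcn7 and BC003965 on mm9, where RefSeq's gene order places Percc1, the wild-type stomach had 4 unnamed records with 10.9 FPKM in all, and the 7 other P1 libraries had none. At the stated positions themselves, 1 unnamed record with 1.34 FPKM stood in the bottom intestine library labelled percc1-/- and none in the 7 others. If the stated numbers are mm9 positions, that signal lies inside the deleted stretch and goes against the label of this library, and if they are GRCm38 positions it lies within Ift140 and checks nothing. Between Clcn7 and BC003965 lies also Ccdc154 (mm9 chr17:25299406-25308858), and the wild-type libraries of the other regions had no unnamed record there either. An absence of such records in percc1-/- libraries therefore does not check their labels. The genotype labels could not be checked at this locus in any region.

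Over the 4 pairs, 8 of 13243 genes tested rose and 0 fell in percc1-/- mice at an adjusted p under 0.05 (limma, region as a block, two-sided, Benjamini-Hochberg adjustment), which is 0.0604% of the genes tested. They were Zbtb16, Gm3448, Mchr1, Fkbp5, Hemt1, Cebpd, C4b and Ms4a4d, each higher in 4 of 4 regions. Without adjustment, 1633 genes had a p under 0.05. With 4 pairs the call is narrow. Leaving out any 1 region left 0 genes called, and the lowest adjusted p of these 8 was then between 0.0851 and 0.271. Without both stomach and top intestine, 0 genes were also called. Without the 3 pairs in which a list of another organ differed by over 1 log2 unit, only colon with rectum was left. With the spread of the later pairs, which this lone pair is assumed to share, 12 genes were then called, and of the 8 none was among them (7 were tested, adjusted p between 0.316 and 0.811 in limma). When the spread between pairs was estimated together with the 11 later pairs, 127 of 13042 genes were called (0.974%), 61 of them higher (0.468%) and 66 lower (0.506%). Of the 8 genes 7 were among them and C4b was not, and 16 of the 127 were still called without stomach and top intestine, Mchr1 and Ms4a4d included, and 1 (Ifi44, an interferon-induced gene) with colon with rectum alone. This second reading is given below as the p with shared spread, and it also rests on pairs that may share animals.

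Because 4 regions are few, genes were also described without a test, by a ratio of at least 1 log2 unit (2-fold) in 4 of 4 regions. This held for 17 genes that were higher in percc1-/- mice (0.128% of those tested) and 5 that were lower (0.0378%). For comparison, 10.2% of all tested genes were higher in 4 of 4 regions by any amount and 12.2% were lower. Ratios and counts over regions are of FPKM rescaled between libraries. Without rescaling the median log2 ratio of all tested genes was -0.13 in stomach, -0.17 in the bottom intestine and 0.11 in colon with rectum, 7.19% of genes were higher and 11.7% lower in 4 of 4 regions, and the counts past 1 log2 unit were again 17 and 5. The 5 lower genes were 4 hormones (Ghrl, Sst, Pyy and Gcg) and Trim12a, and Ghrl is among them only where records without a symbol are left out, as given below. The 17 higher genes held no hormone. When 3 regions were asked for in place of 4, the counts were 31 and 14 without stomach, 21 and 10 without top intestine, 25 and 6 without bottom intestine, and 24 and 10 without colon with rectum. In 14 of the 17 and in 5 of the 5, the authors' FPKM bounds of the 2 genotypes did not overlap in any region.

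**Figure D2:**
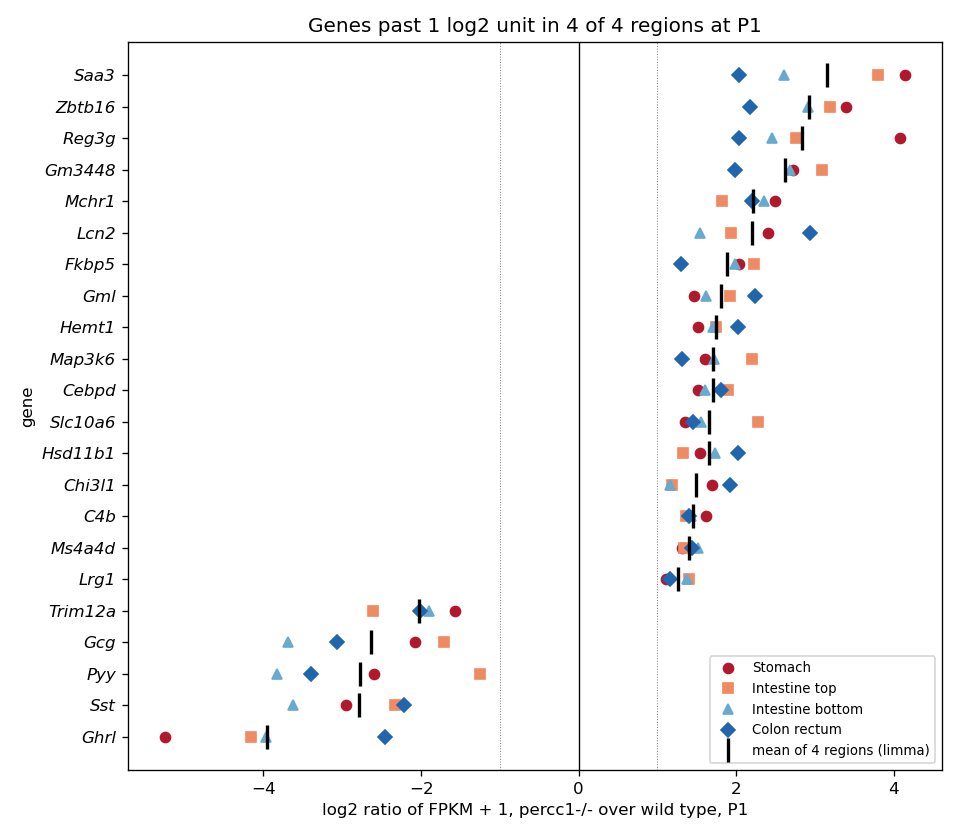
log2 ratio of rescaled FPKM + 1, percc1-/- over wild type (x axis), for the 22 genes (y axis) at least 1 log2 unit apart in 4 of 4 regions at P1. Each symbol is 1 region pair and the black bar the limma mean, which runs from -3.96 for Ghrl to 3.15 for Saa3.

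Values below are FPKM in stomach, top intestine, bottom intestine and colon with rectum, in that order. Ghrelin (Ghrl), the hunger hormone made mainly in the stomach, had 38.2, 17.4, 15.7 and 4.196 in wild type and was listed at 0 in 4 of 4 percc1-/- libraries. An exact 0 in these tables need not mean absence. Of 4625 genes averaging 10 FPKM or more over the P1 libraries, 19 stood at 0 in at least 1 of them, and no library had more than 7 such genes. Records without a symbol lay over Ghrl, at 1.69 to 6.33 FPKM in wild-type and 6.30 to 9.28 FPKM in percc1-/- libraries. With them added, Ghrl had 39.9, 23.7, 22.01 and 9.49 in wild type against 7.36, 7.60, 9.28 and 6.30. Both readings were lower in 4 of 4 regions, by a log2 mean of -3.96 ± 0.42 (SE, adjusted p = 0.0723 in limma) without these records and -1.33 (adjusted p = 0.203) with them, so that the size rests on how the records are read. With the records added, the colon with rectum pair was less than 1 log2 unit apart.

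Somatostatin (Sst), which restrains other endocrine cells, had 14.7, 13.01, 12.1 and 4.21 in wild type and 0.888, 1.78, 0 and 0.186 in percc1-/-. The genotypes did not overlap over all regions, and the adjusted p of its log2 mean of -2.78 ± 0.26 (SE) was 0.0501 in limma, with adjusted p = 0.000397 when the spread was shared. Gcg, which encodes proglucagon and so the GLP peptides, had 6.52, 4.51, 12.7 and 10.7 in wild type and 0.675, 0.667, 0 and 0.5099 in percc1-/- (log2 mean -2.64 ± 0.34 SE, adjusted p = 0.107, and adjusted p = 0.00597 with shared spread, in limma). Peptide YY (Pyy), a hormone of satiety made by the same L cells, had 6.32, 5.13, 14.1 and 16.2 in wild type and 0.164, 1.57, 0 and 0.782 in percc1-/- (log2 mean -2.77 ± 0.42 SE, limma adjusted p = 0.162, and adjusted p = 0.0824 with shared spread). For Gcg and Pyy the highest wild-type levels lay in the bottom intestine and colon with rectum. Islets of the pancreas also make Gcg, Sst and Pyy. Islet genes summed to 6.38 FPKM in the wild-type stomach and 10.9 in the top intestine, against 0.753 and 2.02 in percc1-/-. In the other 2 regions they summed to at most 1.25 FPKM, and the part of islets in these hormones was not tested. In the percc1-/- bottom intestine, Sst, Gcg and Pyy were all listed at 0. Without stomach and top intestine, the log2 means, which partly rest on them, were -2.92 for Sst, -3.37 for Gcg and -3.61 for Pyy. With shared spread, Sst and Gcg were then still called (adjusted p = 0.0211 and adjusted p = 0.0435, limma) and Ghrl was not (adjusted p = 0.354). In colon with rectum alone, with the spread of the later pairs, none of the 3 was called (adjusted p = 0.249 for Sst, 0.309 for Gcg and 0.873 for Ghrl, limma), at log2 ratios of -2.29, -3.13 and -2.54.

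Other hormones were regional in wild type, and Gip, Cck and Nts were low in the percc1-/- top and bottom intestine. Gip, which raises insulin after a meal, had 24.99 FPKM in the wild-type top intestine and 20.2 in the bottom intestine against 0.345 and 0. Cck, which empties the gall bladder, had 17.3 and 9.93 in these regions against 0.735 and 0, but 2.74 and 2.68 in colon with rectum, where the genotypes did not differ by more than their bounds. Neurotensin (Nts), a peptide of the distal gut, had 11.1, 20.2 and 10.4 in the 3 regions below the stomach against 0.237, 0.134 and 0.519. Single regions have no test, and over the 4 pairs none of the 3 hormones passed (limma adjusted p = 0.356 for Gip, 0.387 for Cck and 0.243 for Nts).

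Secretin (Sct), the hormone of pancreatic bicarbonate, differed less between the genotypes. It had 16.9, 16.8 and 13.2 FPKM below the stomach in wild type and 6.96, 5.39 and 7.77 in percc1-/-, and in stomach 0.345 against 1.37. Insl5, a peptide of colonic L cells, had 9.79 FPKM in the wild-type top intestine and 5.91 in colon with rectum against 1.47 and 0.0812. Gast, the acid-driving hormone of the gastric antrum, had 5.12 FPKM in wild-type stomach and was listed at 0 in percc1-/- stomach. Tac1, which encodes substance P and is also made by enteric neurons, was not lower as a whole. It had 5.74, 4.91, 4.79 and 7.21 in wild type and 4.27, 8.37, 5.37 and 15.9 in percc1-/- (log2 mean 0.41 ± 0.20 SE, limma adjusted p = 0.459).

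Of the 13 hormones listed, 11 passed the filter of a mean of 1 FPKM, and Iapp and Ppy did not. Gip, Nts and Gcg were under 1 FPKM in every percc1-/- library and passed it through wild type. Of the 11, 7 were lower in 4 of 4 regions and 0 higher, with 12.2% lower among all genes. Among the 7, the FPKM bounds of the genotypes were apart in only 2 regions for Gip, 2 for Cck and 3 for Nts. In stomach these 3 hormones were under 1 FPKM in both genotypes. None of the 11 passed the test at P1. With the spread shared 3 did (Ghrl, Sst and Gcg), beside 0.506% of all genes called lower. The median log2 mean of the 11 was -2.31, against -0.01 over all tested genes. Its regional medians were -0.24 in stomach, -2.12 and -3.63 in top and bottom intestine and -2.22 in colon with rectum. In the percc1-/- bottom intestine, which is a single library, Ghrl, Sst, Gip, Cck, Gcg and Pyy were all listed at 0. The median of that region rests on these values. In bulk tissue, fewer cells of a type and less RNA per cell cannot be told apart.

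**Figure D3:**
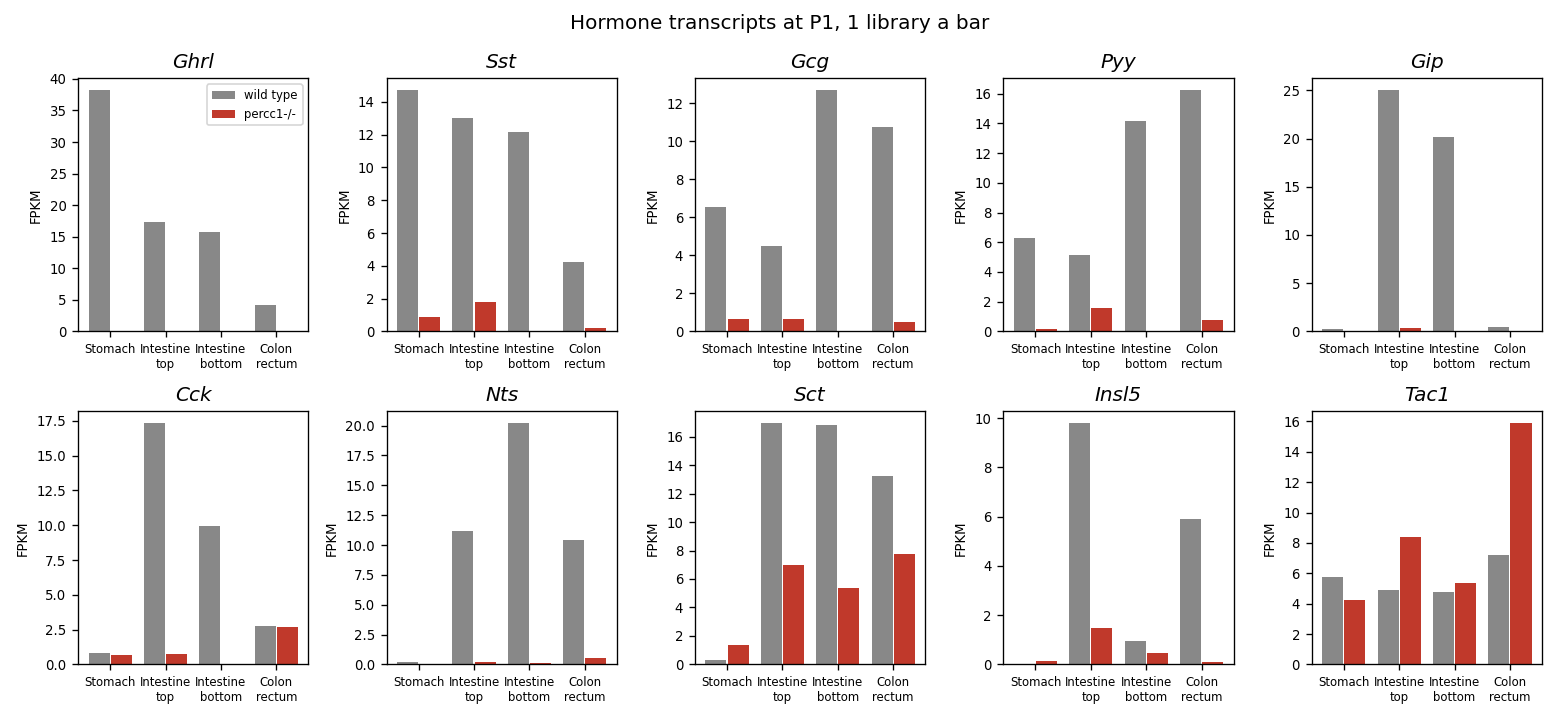
FPKM (y axis, from 0) of 10 hormone genes in the 4 regions at P1 (x axis), 1 library a bar, wild type grey and percc1-/- red. Ghrl, Sst, Gcg and Pyy were lower in percc1-/- in 4 of 4 regions, Gip, Cck and Nts were near 0 in the percc1-/- intestine, Sct was lower in 3 of 4 regions and Tac1 higher in 3 of 4.

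The genes that endocrine cells use to store and process hormones were mixed in direction. Of 16 tested granule and amine genes, 5 were lower and 3 higher in 4 of 4 regions, beside 12.2% and 10.2% of all genes, and their median log2 mean was -0.14. Chromogranin A (Chga), the granule core protein, had 9.79, 11.9, 10.5 and 5.46 in wild type and 7.52, 20.5, 17.5 and 13.4 in percc1-/-, higher in 3 of 4 regions. Chromogranin B (Chgb) had 3.48, 17.97, 16.2 and 8.61 against 6.12, 18.2, 17.7 and 17.4. Scg2, a further granule protein and 1 of the 5 lower genes, had 4.22, 5.34, 3.75 and 7.07 against 3.29, 3.08, 2.63 and 6.58 (log2 mean -0.32 ± 0.14 SE, limma adjusted p = 0.429). Tph1, the enzyme that makes serotonin in enterochromaffin cells, had 0.269, 4.24, 3.21 and 1.65 in wild type and 1.46, 10.7, 6.095 and 9.48 in percc1-/- and was higher in 4 of 4 regions (log2 mean 1.24 ± 0.19 SE, limma adjusted p = 0.162, and adjusted p = 0.0156 with shared spread). Its FPKM bounds did not overlap in any region. Of the 17 endocrine transcription factors, only 6 passed the filter on low values and all 6 had mixed signs over the regions, so that Neurog3, the factor that starts the endocrine lineage, could not be read at this level of signal.

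Known glucocorticoid-responsive genes made up 2 of the 8 calls at P1, Zbtb16 and Fkbp5. Zbtb16, a zinc finger repressor and known glucocorticoid target, had 1.11, 0.802, 0.531 and 0.986 in wild type and 18.97, 15.9, 9.49 and 8.703 in percc1-/-. The lowest percc1-/- level lay above the highest wild-type level, and the gene rose by a log2 mean of 2.92 ± 0.22 (SE, limma adjusted p = 0.0373). Fkbp5, a co-chaperone that holds the glucocorticoid receptor inactive and is itself its target, had 5.19, 5.61, 5.34 and 6.19 against 21.5, 30.4, 21.1 and 18.7 and rose by 1.88 ± 0.17 (SE, limma adjusted p = 0.0485). It was higher by about the same amount in stomach and both parts of the intestine, and by less in colon with rectum (log2 ratio 1.30). Per1, a clock gene with glucocorticoid input, had 10.5, 4.79, 4.27 and 4.75 against 17.7, 13.4, 9.91 and 15.8 and did not pass (log2 mean 1.20 ± 0.12 SE, limma adjusted p = 0.0662, and adjusted p = 0.00339 with shared spread).

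Other known glucocorticoid targets were higher in every region without passing at P1. Sgk1, a kinase that regulates sodium transport, had 12.7, 24.1, 36.4 and 14.46 in wild type and 18.1, 50.5, 54.9 and 39.01 in percc1-/- (0.91 ± 0.11 SE, limma adjusted p = 0.0917, and adjusted p = 0.0352 with shared spread). Klf15, a transcription factor of fasting metabolism, had 1.12, 0.195, 0.231 and 0.323 against 8.24, 2.86, 1.03 and 1.21, with its largest ratio in stomach. Klf9 had 7.94, 8.16, 8.06 and 5.07 against 12.6, 18.99, 9.21 and 14.9, and Tsc22d3, which encodes the anti-inflammatory protein GILZ, had 11.4, 11.9, 13.3 and 8.94 against 15.9, 16.2, 14.95 and 13.4. Klf9 and Klf15 passed with shared spread (adjusted p = 0.00703 and adjusted p = 0.00983, limma), and Tsc22d3 did not (adjusted p = 0.08603). Pdk4, which spares glucose by blocking pyruvate oxidation in fasting, had 13.1, 11.6, 5.73 and 2.19 against 14.99, 25.6, 28.4 and 7.64, and its stomach pair barely differed. Ddit4, an inhibitor of mTORC1 signalling, had 5.77, 8.76, 7.97 and 4.93 against 8.37, 19.4, 10.9 and 10.98.

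Of 18 tested genes of the fasting and glucocorticoid list, 10 were higher and 1 lower in 4 of 4 regions (9 and 0 without rescaling), where 10.2% and 12.2% of all genes were. The test at P1 called 2 of them, Zbtb16 and Fkbp5, beside 0.0604% of all genes. With shared spread 6 were called, beside 0.468% of all genes called higher. Of these 6, 0 were still called without stomach and top intestine. The median log2 mean was 0.41, and 0.65 and 0.27 in the bottom intestine and colon with rectum. The list did not move as 1 block. Cpt1a, which brings fatty acids into mitochondria for oxidation, had no common direction, with 21.9, 34.3, 34.8 and 16.3 against 14.55, 29.8, 29.6 and 19.1. The metallothioneins, which bind metals and also respond to glucocorticoids, had no common direction for Mt1 (25.8, 29.3, 37.8 and 21.8 against 20.2, 37.5, 25.2 and 26.3) and, after rescaling but not without it, were lower in 4 of 4 regions for Mt2 (20.4, 21.1, 27.2 and 16.4 against 15.7, 20.05, 14.01 and 17.6, log2 mean -0.26 ± 0.13 SE, limma adjusted p = 0.474).

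Genes outside that list were higher in the same 4 regions. Cebpd, a transcription factor of stress and acute phase genes, had 3.78, 2.28, 1.65 and 2.52 in wild type and 11.3, 11.4, 6.23 and 12.5 in percc1-/- and rose by 1.70 ± 0.12 (SE, limma adjusted p = 0.0373). Hsd11b1, the enzyme that regenerates active corticosterone inside cells, had 0.433, 0.744, 0.295 and 0.327 against 2.85, 3.45, 3.01 and 4.71 and missed the threshold (1.66 ± 0.16 SE, limma adjusted p = 0.0501, and adjusted p = 0.0693 with shared spread). Map3k6, a stress kinase, had 3.15, 0.236, 0.412 and 0.889 against 10.3, 4.86, 3.28 and 4.02 (limma adjusted p = 0.0662, and adjusted p = 0.0201 with shared spread). Slc10a6, a transporter of steroid sulfates, had 8.48, 0.301, 0.125 and 0.395 against 20.4, 5.502, 2.11 and 3.03 (limma adjusted p = 0.08496, and adjusted p = 0.00983 with shared spread), and its highest wild-type level was that of stomach.

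The promoters of these genes were read for the glucocorticoid receptor's palindrome, since the receptor binds DNA directly. The letters searched were GNACANNNTGTNC, which read the same on both strands, in the 250 bases before each start in RefSeq's GRCm38.p6 promoter table. Of the 17 genes higher in every region 11 had an entry, and Zbtb16 and Cebpd were not among them. Of the 11, 2 held a match, Map3k6 and Slc10a6, and none was found for Fkbp5. Of 18 entries of the fasting and glucocorticoid list 3 did (Sgk1, Txnip and Mt1), and of these Txnip and Mt1 had no common sign over the 4 regions at P1. Among the 9374 tested genes with an entry, 0.299% held it, and 0.44% of all 27025 genes in the table. The promoter stretches of Map3k6, Slc10a6 and Sgk1 are shown because these genes were higher in 4 of 4 regions, 5′ to 3′ on the gene's strand with the match in capitals. A match is a description of letters and not a site of binding, and other entries may hold the motif outside these windows.
Map3k6: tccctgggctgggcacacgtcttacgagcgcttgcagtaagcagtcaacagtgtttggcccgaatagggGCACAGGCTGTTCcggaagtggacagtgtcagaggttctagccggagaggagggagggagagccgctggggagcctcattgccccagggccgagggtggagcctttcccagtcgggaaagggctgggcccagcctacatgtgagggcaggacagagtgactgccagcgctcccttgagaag
Slc10a6: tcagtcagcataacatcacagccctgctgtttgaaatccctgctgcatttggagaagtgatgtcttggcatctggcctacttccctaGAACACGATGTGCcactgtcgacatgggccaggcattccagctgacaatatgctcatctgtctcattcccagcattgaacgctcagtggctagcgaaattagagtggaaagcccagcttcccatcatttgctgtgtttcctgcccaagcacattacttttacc
Sgk1: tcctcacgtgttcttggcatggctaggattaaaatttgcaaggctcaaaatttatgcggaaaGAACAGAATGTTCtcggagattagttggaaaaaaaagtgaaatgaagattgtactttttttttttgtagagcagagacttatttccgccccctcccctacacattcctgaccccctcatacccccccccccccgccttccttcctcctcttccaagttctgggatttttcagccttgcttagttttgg
Counted from the start, the matches lie at -181 to -169 in Map3k6 (GRCm38.p6 chr4:133240568-133240817, plus strand), -163 to -151 in Slc10a6 (chr5:103629404-103629653, minus strand) and -188 to -176 in Sgk1 (chr10:21993640-21993889, plus strand, 1 of its annotated starts).

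Acute phase and antimicrobial genes were higher in percc1-/- mice as well. Serum amyloid A3 (Saa3), a lipid-binding acute phase protein of epithelium and macrophages, had 0.1098, 0, 0.374 and 4.51 in wild type and 16.8, 13.6, 6.69 and 23.9 in percc1-/- (log2 mean 3.15 ± 0.37 SE, limma adjusted p = 0.08804, and adjusted p = 0.00334 with shared spread). Reg3g, a lectin that kills Gram-positive bacteria, had 0.151, 3.88, 3.25 and 4.66 against 16.8, 32.6, 19.5 and 24.7 (2.83 ± 0.33 SE, limma adjusted p = 0.08496, and adjusted p = 0.00983 with shared spread). Its relative Reg3b had 0.461, 13.4, 13.9 and 23.8 against 21.3, 49.6, 36.8 and 42.9, with the largest ratio in stomach and the smallest in colon with rectum. Wild-type stomach had the lowest level of both lectins. Lipocalin 2 (Lcn2), which withholds iron from bacteria, had 0.615, 1.27, 1.32 and 1.39 against 6.76, 7.88, 5.12 and 18.98, and Lrg1, a leucine-rich acute phase glycoprotein, had 0.0862, 0.472, 0.244 and 0.256 against 1.21, 2.98, 2.02 and 1.93. Neither passed in either reading (with shared spread, limma adjusted p = 0.0793 for Lcn2 and adjusted p = 0.317 for Lrg1).

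Neutrophil proteins followed with more spread between regions. S100a8 and S100a9, the 2 chains of calprotectin, had 4.16, 1.47, 1.82 and 2.899 and 11.2, 1.44, 1.22 and 3.24 in wild type against 7.72, 13.3, 3.62 and 25.9 and 12.8, 16.4, 4.53 and 26.4 in percc1-/-. Their ratios were largest in the top intestine and colon with rectum. Haptoglobin (Hp), which binds free hemoglobin, had 0.477, 0.1899, 0.0492 and 0.294 against 3.77, 4.62, 0.626 and 7.69. Interleukin 1 beta (Il1b) and the neutrophil attractant Cxcl1 were higher in 3 of 4 regions and not in the bottom intestine, where Il1b had 0.399 in wild type and 0.238 in percc1-/- and Cxcl1 0.139 and 0.111. Of 19 tested genes of the acute phase and neutrophil list, 13 were higher and 0 lower in 4 of 4 regions, beside 10.2% and 12.2% of all genes. Members such as Hp and Lrg1 were under 1 FPKM in wild type in every region and entered the test through their percc1-/- levels. Such an entry favours a rise. None of the 19 passed at P1 and 2 (Saa3 and Reg3g) did with shared spread, beside 0.468% of all genes called higher. Without stomach and top intestine, neither passed with shared spread (limma adjusted p = 0.215 and adjusted p = 0.307), at log2 means of 2.36 and 2.26. The median log2 mean was 1.14, and 0.80, 1.44, 0.68 and 2.03 in the 4 regions. General leukocyte markers were lower instead in summed FPKM, which was not rescaled. Of 7 tested, 2 (H2-Aa and H2-Ab1) were lower and 0 higher in 4 of 4 regions after rescaling, beside 12.2% and 10.2% of all genes. Without rescaling 5 were lower, beside 11.7% of all genes. The median log2 mean of the leukocyte list was -0.30, and its median in stomach was -0.02. The summed level of the 14 leukocyte genes, of which 7 or 8 reached 1 FPKM in a region, in wild type and percc1-/- was 33.3 and 28.6 FPKM in stomach, 65.8 and 39.8 in the top intestine, 66.7 and 38.4 in the bottom intestine and 43.3 and 34.8 in colon with rectum.

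The other called rises have less familiar roles in gut. Mchr1, a receptor for melanin-concentrating hormone, had 0.879, 1.05, 0.483 and 0.564 in wild type and 8.54, 6.395, 5.96 and 6.67 in percc1-/- and rose by 2.21 ± 0.16 (SE, limma adjusted p = 0.0373). Ms4a4d, a membrane protein of the MS4A family, had 1.87, 1.57, 1.27 and 1.89 against 5.48, 5.64, 4.84 and 7.51, with log2 ratios between 1.32 and 1.51 in the 4 regions, and rose by 1.40 ± 0.12 (SE, limma adjusted p = 0.0444). C4b, a component of complement, had 0.411, 1.31, 0.681 and 1.23 against 2.98, 5.03, 3.14 and 5.37 and rose by 1.45 ± 0.12 (SE, limma adjusted p = 0.0444), but did not pass with shared spread (adjusted p = 0.0603). In none of these 3 did the genotypes overlap over the regions.

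Hemt1 and Gml are neighbours on chromosome 15 (mm9 chr15:74649506-74654866 and chr15:74643858-74649245) and had near-equal values. Hemt1 had 1.45, 0.755, 1.47 and 0.0615 in wild type and 5.38, 5.01, 6.27 and 3.502 in percc1-/- and rose by 1.75 ± 0.14 (SE, limma adjusted p = 0.0373), and Gml had 1.61, 0.74997, 1.77 and 0 against 5.51, 5.77, 6.64 and 3.92 (limma adjusted p = 0.0501). Whether reads of the 2 genes were told apart was not tested. Gm3448, a predicted gene of chromosome 17 held in more than 1 record of near-identical copies, had 0.358, 0.379, 0.897 and 0.942 against 7.16, 11.2, 10.02 and 7.25 and rose by 2.62 ± 0.20 (SE, limma adjusted p = 0.0373), and its level is uncertain for the same reason. Chi3l1, a chitinase-like protein of inflamed epithelium, had 0.483, 0.0378, 0 and 0.146 against 3.41, 1.43, 1.14 and 3.56 and did not pass (limma adjusted p = 0.0917).

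Interferon-induced genes were lower in percc1-/- mice. Trim12a, of the TRIM family of antiviral proteins, had 3.59, 11.7, 8.998 and 4.84 in wild type and 0.469, 1.08, 1.41 and 0.553 in percc1-/-, with no overlap between the genotypes (log2 mean -2.02 ± 0.19 SE, limma adjusted p = 0.0501, and adjusted p = 0.04396 with shared spread). Its neighbour Trim30d on chromosome 7 had 0.783, 9.62, 13.9 and 2.58 against 0.0653, 0.157, 0.177 and 0.222, and Trim30a had 2.48, 6.98, 8.13 and 2.86 against 1.03, 1.69, 2.12 and 1.63. These 3 genes belong to a family of close copies, so that reads may have been split between them. Outside the family, Oasl2, a sensor-like protein of viral RNA, had 6.49, 24.2, 16.98 and 6.24 against 1.92, 7.77, 9.57 and 3.26 (log2 mean -1.06 ± 0.18 SE, limma adjusted p = 0.185, and adjusted p = 0.00597 with shared spread). Gbp3, a guanylate-binding protein that attacks pathogen vacuoles, had 3.43, 8.2005, 8.82 and 3.18 against 1.26, 2.33, 2.76 and 2.34, and Ifit2, which binds viral RNA, had 2.91, 19.3, 11.6 and 4.77 against 1.47, 3.94, 3.93 and 3.06. The transcription factor Irf1 had 9.36, 25.3, 23.8 and 9.99 against 4.84, 14.2, 16.05 and 7.62. Wild-type levels of these genes were highest in the 2 parts of the intestine.

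Of 18 tested genes of the interferon and antigen processing list, 13 were lower (12 without rescaling) and 0 higher in 4 of 4 regions, where 12.2% and 10.2% of all genes were. None passed at P1 and 6 did with shared spread, beside 0.506% of all genes called lower. Of these 6, 1 (Isg15) was still called without stomach and top intestine. The median log2 mean was -0.67, and -0.50, -1.36, -0.40 and -0.53 in the 4 regions. Isg15 and Ifit1 were lower in 3 of 4 regions and not in stomach, with Isg15 at 2.04, 17.1, 12.5 and 3.84 against 1.97, 4.48, 5.22 and 2.097 and Ifit1 at 1.77, 27.4, 27.95 and 7.57 against 3.29, 9.95, 11.96 and 3.26. The class II antigen genes H2-Ab1 and H2-Aa, markers of antigen-presenting cells, were lower too, with 4.05, 11.9, 14.3 and 6.67 against 2.85, 7.65, 7.12 and 3.22 for H2-Ab1 and 3.16, 16.4, 14.9 and 8.26 against 2.602, 8.28, 8.91 and 4.63 for H2-Aa. They are the 2 genes of the leukocyte list above that were lower in 4 of 4 regions, and both lie on chromosome 17, that of the targeted locus. The summed level of that list, not rescaled, was also lower in 4 of 4 regions, and its part in the interferon values was not tested.

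**Figure D4:**
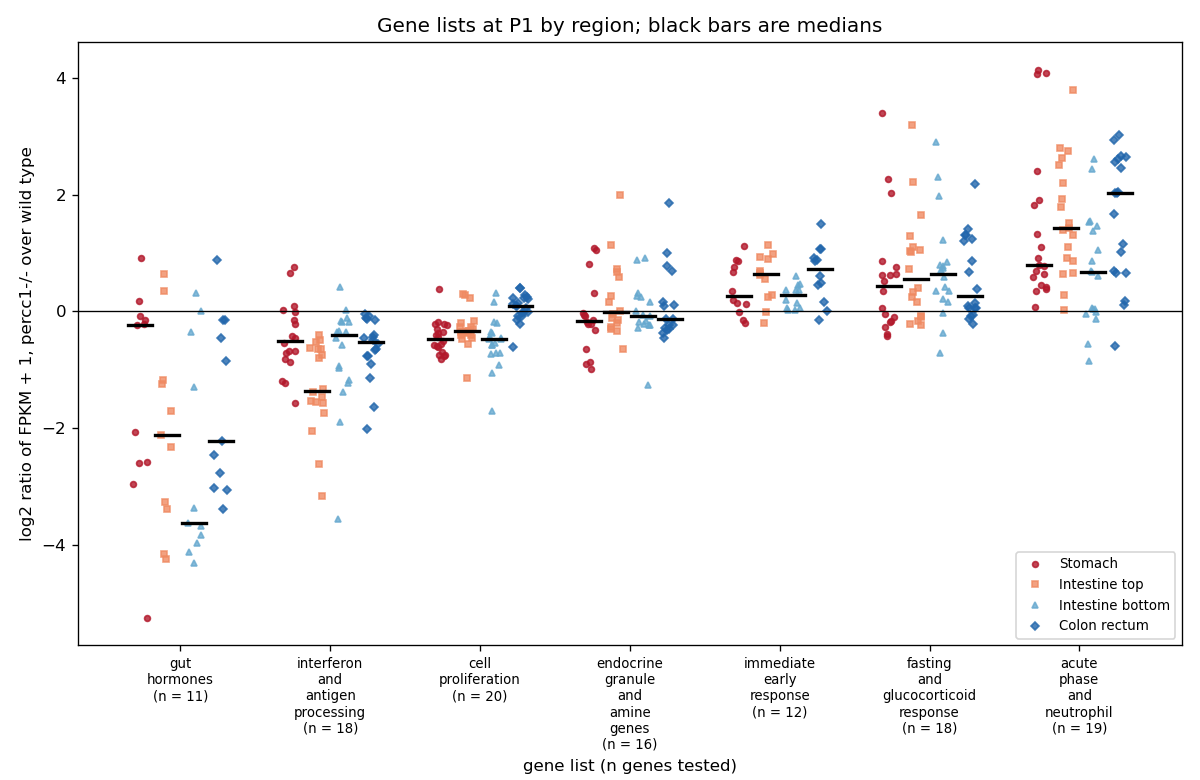
log2 ratios of rescaled FPKM + 1, percc1-/- over wild type (y axis), of the tested genes of 7 lists (x axis), 1 symbol a gene and region, with black bars for regional medians. The medians of acute phase and neutrophil genes lay above 0 and those of hormones and interferon genes below 0 in 4 of 4 regions, while proliferation genes lay below 0 in 3 regions and at 0.09 in colon with rectum.

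Immediate early genes are those that cells switch on within minutes of a stimulus. Of 12 tested, 9 were higher and 0 lower in 4 of 4 regions, beside 10.2% and 12.2% of all genes. Without rescaling 4 were higher, beside 7.19% of all genes. The list had a median log2 mean of 0.50. With shared spread 1 was called (Zfp36, which speeds the decay of cytokine mRNA, adjusted p = 0.0315, limma) and none without. Of all genes 0.468% were called higher with shared spread. Fos had 5.71, 5.797, 6.45 and 2.502 in wild type and 8.599, 14.1, 9.03 and 9.83 in percc1-/-, and Dusp1, a phosphatase that is also a glucocorticoid target, had 11.5, 6.62, 6.34 and 6.86 against 13.2, 13.8, 7.32 and 14.8.

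Of 20 tested proliferation genes, 7 were lower and 0 higher in 4 of 4 regions, beside 12.2% and 10.2% of all genes, and none was called in either reading. Without rescaling 3 of the 20 were lower, near the 11.7% of all genes. Mki67, a marker of cycling cells, had 17.6, 18.5, 19.4 and 18.04 against 10.02, 13.97, 11.8 and 19.1, and Top2a, the topoisomerase of dividing cells, had 18.995, 18.5, 19.9 and 18.1 against 9.49, 13.4, 11.2 and 20.2. The median of the list was -0.48 in stomach, -0.34 and -0.48 in the top and bottom intestine, and 0.09 in colon with rectum.

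Genes of nutrient uptake did not share a direction over the regions at P1. None of 14 fat absorption genes and none of 12 brush border genes had the same sign in 4 of 4 regions, and the higher values of these lists in the percc1-/- stomach (medians 1.07 and 0.84) went with its higher brush border markers described above. Goblet cell products had 1 of 11 genes higher and 0 lower in 4 of 4 regions, enteric neuron genes had 2 of 16 each way, and smooth muscle genes 4 of 10 lower (1 lower and 1 higher without rescaling) with a median of -0.01, beside 10.2% higher and 12.2% lower among all genes.

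Pairs from P5 to P20, none of which entered the choice of genes at P1, were then used to test the P1 genes. Of the 5 genes lower in every region, 5 had the same sign in the later test and 3 fell. The log2 change was -2.79 ± 0.26 for Gcg (SE, limma adjusted p = 0.000303, lower in 11 of 11 pairs), -1.63 ± 0.17 for Sst (0.000813, 11 of 11) and -3.20 ± 0.49 for Ghrl (0.0174, 10 of 11). The later test called 0.175% of 13159 genes, 0.0912% lower and 0.0836% higher, and 9 to 23 genes when single later pairs were left out, the fewest without the top intestine at P5. Gcg, Sst and Saa3 were called in 11 of these 11 fits, Ghrl in 8 and Gm3448 in 9. Of the 17 genes higher in every region, 15 were tested later and 15 had the same sign, but only 2 rose, Saa3 by 1.92 ± 0.28 (SE, limma adjusted p = 0.0144, 11 of 11 pairs) and Gm3448 by 1.61 ± 0.24 (limma adjusted p = 0.0174, 10 of 11 pairs). The share of all tested genes with the same sign at P1 and later was not counted, so these sign counts have no background. At P1, 6464 of 13243 genes had a log2 mean above 0. The median log2 mean of the lower genes was -2.77 at P1 and -2.13 later. For the 15 higher genes tested in both it was 0.93 later, against 1.75 for all 17 at P1. These genes were chosen by their P1 values, which alone can make the later medians smaller. The medians therefore do not compare the stages.

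The difference between the P1 effect and the later effect was tested in its own right, and 0 of 13042 genes passed (limma, 1048 with an unadjusted p under 0.05), while 3 did when the top intestine pair of P1 was left out. The smallest values for the P1 genes were those of Mchr1 and Ms4a4d (adjusted p = 0.0629 each) and Zbtb16 (0.0918). Zbtb16 was higher in 4 of 4 pairs at P1 and in 6 of 11 later, with a log2 mean of 0.52 ± 0.24 (SE, adjusted p = 0.545). Ms4a4d had a later mean of 0.12 ± 0.12 (SE) and was higher in 6 of 11 pairs, and Cebpd one of 0.38 ± 0.17 (SE), with 7 of 11. Fkbp5 had 0.98 ± 0.19 (SE, limma adjusted p = 0.0784) and was higher in 9 of 11. A larger effect at P1 than later is therefore not shown for any gene at the threshold used. The later pairs also differ from the P1 pairs in their regions, so stage and region cannot be told apart in this contrast. With later pairs of P5 only, 0 genes passed as well, and 0 with colon and rectum left out (limma).

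**Figure D5:**
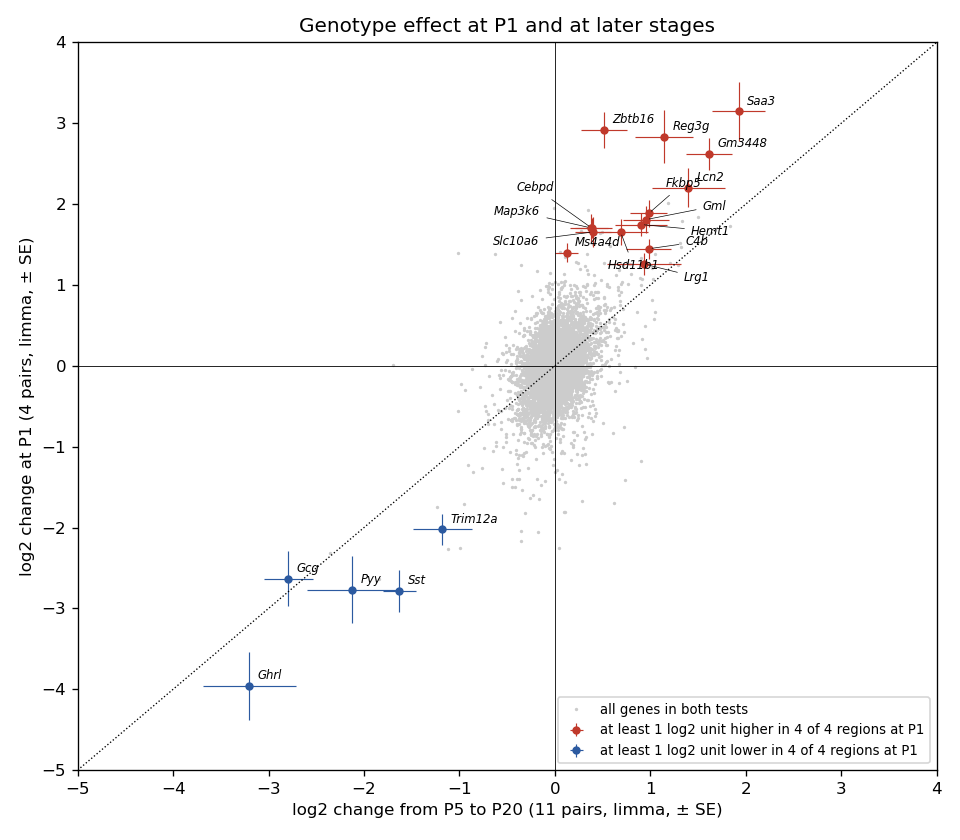
log2 change with genotype at P1 (y axis, 4 pairs) against that from P5 to P20 (x axis, 11 pairs), both from limma with bars of 1 SE, for all genes in both tests (grey) and those at least 1 log2 unit apart in 4 of 4 regions at P1 (red higher, blue lower). The coloured genes were chosen by their P1 values. The dotted line marks equal change. Zbtb16 (2.92 and 0.52) and Ms4a4d (1.40 and 0.12) lie far above it and Gcg (-2.64 and -2.79) lies close to it.

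Genes that the later pairs alone had called were then read at P1. Of the 23 called from P5 to P20, 22 were tested at P1, and 22 had the same sign there, a count that again has no background share of all genes. Of 11 later rises 8 were higher in 4 of 4 P1 regions, and of 11 later falls 11 were lower in 4 of 4, where 10.2% and 12.2% of all genes were. Tph1 rose later by 1.28 ± 0.15 (SE, limma adjusted p = 0.00157, 11 pairs), close to its P1 mean of 1.24 ± 0.19. Rtp4 and Xaf1, both interferon-induced, fell later (log2 change -0.56 ± 0.09 and -0.62 ± 0.11 SE, limma adjusted p = 0.0272 and 0.0418) and had P1 values of 3.85, 16.03, 15.1 and 4.55 and 5.44, 19.6, 17.8 and 5.97 in wild type against 1.53, 6.195, 7.63 and 3.78 and 2.57, 5.58, 6.71 and 5.296. Chgb rose later by 0.52 ± 0.08 (SE, limma adjusted p = 0.0272) and was higher in 4 of 4 regions at P1. With single later pairs left out, Tph1 was called in 11 of 11 fits, Rtp4 in 4, Xaf1 in 1 and Chgb in 3.

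Genes on the chromosome of the targeted locus were counted apart, since the deletion was made in W4/129S6 cells and kept on a mixed background. Of the 22 genes past 1 log2 unit in every region, 4 lie on chromosome 17 (Fkbp5, C4b, Gm3448 and Lrg1), which is 0.625% of the 640 genes tested there, against 0.143% of genes elsewhere. Of the 22 later calls 8 lie on chromosome 17, which holds 4.83% of the genes tested. Among them Glo1, an enzyme that detoxifies methylglyoxal, had 14.9, 18.4, 18.1 and 13.6 against 20.3, 22.01, 22.1 and 24.1 at P1 and rose later by 0.50 ± 0.04 (SE, limma adjusted p = 0.000262), Tagap1 had 4.26, 3.84, 4.43 and 4.27 against 2.46, 1.94, 1.58 and 2.701, and Tmem181a had 9.1004, 17.5, 15.5 and 7.71 against 14.3, 30.8, 32.2 and 21.2. H2-Ab1, H2-Aa and Dusp1, described above, also lie on chromosome 17. The part of flanking sequence in the values of all these genes, including Fkbp5 and C4b, was not tested.

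Some differences were large in 1 region alone, and with 1 library a genotype they have no test. In stomach, 387 genes (2.92% of those tested) were at least 1 log2 unit higher in percc1-/- with FPKM bounds that did not overlap, and 308 (2.33%) were lower. The counts were 358 (2.7%) and 243 (1.83%) in the top intestine, 205 (1.55%) and 214 (1.62%) in the bottom intestine, and 182 (1.37%) and 247 (1.87%) in colon with rectum. The most were in stomach and the fewest in the bottom intestine. Among the genes far apart in stomach and in no other region were 3 enterocyte genes, namely Apoc3, a lipoprotein component (0.334 FPKM in wild type and 16.2 in percc1-/-), Mgam, a brush border glucosidase (0.225 and 10.2), and Cdhr5, a brush border cadherin (0.709 and 13.6). They went with the lower gastric and higher brush border lists of that library. In colon with rectum the neutrophil attractant Cxcl3 was listed at 0 in wild type and had 8.82 FPKM in percc1-/-, beside the neutrophil genes above. In the bottom intestine Ada, an enzyme of purine breakdown, had 4.76 in wild type and 17.01 in percc1-/-. Of the 32 genes named by the rule for single regions, 27 were listed at 0 in at least 1 of the 8 libraries, 15 of them in exactly 1. Among these were Prelid1, Ndufb2 and Cox6c of mitochondria, which every cell uses. A difference that rests on such a 0, that of Cxcl3 included, need not be a change.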

How the data were processed

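For each library the authors deposited a gene table from Cufflinks, with FPKM values and their bounds. TopHat2 2.0.13, SAMtools 0.1.18, Cufflinks 2.2.1 and mm9 are named in the submitters' processing notes, and the sources used here do not give the version of the annotation. Libraries were stranded (first-strand synthesis), per the labels. Depth is unknown, since the deposited FPKM tables hold no counts. The 8 P1 tables held 144431 to 248150 records, and those with a gene symbol made up 18.4% to 26.3% of the FPKM sum. Only these entered the tests, summed per symbol. Genes in failed records or in records merging several symbols were left out.

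FPKM was rescaled to the libraries' geometric mean by each library's median ratio, which can move every ratio of a library together, and log2(FPKM + 1) was fitted in R 4.3.3 with limma 3.58.1 (trended, robust variance prior, region and stage pair as a block) for genes averaging 1 FPKM or more over the libraries of a fit. The pseudocount of 1 understates ratios of low genes. The pairing comes from region and stage in the labels. p-values are two-sided, with Benjamini-Hochberg adjustment over all genes tested, and genes under 0.05 were called. The procedure was tested on simulated data. The P1 effect minus the later effect, and the P1 test with shared spread, came from 1 fit over 15 pairs. The comparisons and the gene lists were chosen with earlier results of these data known. Genes are named by a rule: hormones, called genes, genes past 1 log2 unit in every region, up to 4 members of each list with 1 sign in 4 of 4 regions, up to 4 each way that stand apart in 1 region, and up to 10 each way called from P5 to P20. The rest of the 17 higher genes, the region markers, and Chga, Cpt1a, Cxcl1, Ddit4, Hp, Ifi44, Ifit1, Il1b, Irf1, Isg15, Klf9, Mki67, Mt1, Mt2, Oasl2, Per1, S100a8, S100a9, Sgk1, Tsc22d3, Txnip and Zfp36 were named after their values were seen.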

Additional observations from a re-analysis of the deposited data

Results flagged for a closer look

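Among the 24 hormones and other named genes for which the log2 ratios of the 4 regions were compared with each other, 1 had a region far from the other 3. Gast, the hormone of the gastric antrum, had a log2 ratio of -2.58 in stomach (5.12 FPKM in wild type and listed at 0 in percc1-/-), while the ratios elsewhere lay between -0.14 and 0.34 at levels of at most 1.72 FPKM. The genes other than hormones were chosen because their 4 regions shared a direction, so no rate of such flags by chance is given. Other gastric genes were also lower in the percc1-/- stomach, in 13 of 13 members of the gastric gland and pit list, and their part in the value of Gast was not tested.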

How the results depend on the processing

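The test at P1 is fragile. Its 8 calls became 3 with a minimum of 5 FPKM, 0 without a minimum, 5 with a pseudocount of 0.1 FPKM, 13 with a plain variance prior, 21 without rescaling, 4 without the pair as a block, 127 with the spread shared with later pairs, and 0 to 0 with each region left out in turn. In alternatives added after the data were seen, 0 were called without stomach and top intestine, and 20 when the spread was then shared. The planned fit on colon with rectum alone, the pair with no such marker difference, had 12, with 0 of the 8 among them. The 23 later calls became 12 with a minimum of 5 FPKM and 8 without the pair as a block, and 9 to 23 with each pair left out (added after the data were seen). The difference between P1 and later, with 0 calls, had 1 without the block, 5 without rescaling, and 0 to 3 with each P1 region left out. The genes past 1 log2 unit in every region numbered 57 higher and 28 lower at a threshold of 1.5-fold and 40 and 17 with a pseudocount of 0.1 FPKM. Asking only for the 3 other regions gave 21 to 31 higher and 6 to 14 lower. Where a count moved, the cause was not tested, beyond the fewer genes or pairs that a stricter minimum or an omission leaves. For single named genes, 264 values kept direction and side of the threshold, 20 newly passed, 72 no longer passed and none reversed.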
